A study of Mus musculus with 8 samples.

Results

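The TREM and GP49 paired myeloid receptors were followed across the 4 states of a mouse progenitor cell line. The 9 genes were Trem1, Trem2, Trem3, Treml1, Treml2, Treml4, the adaptor Tyrobp, and the sequence-related pair Gp49a and Lilrb4, out of 34199 annotated genes. They were selected on the basis of their RNA-seq levels in these same libraries, so their levels and differences are described here with their spread and without p-values. How many of them the fit over all genes called is given beside the share of all genes called, and nothing is read from those counts. Bulk RNA sequencing was performed on immortalized granulocyte-macrophage progenitors (iGMPs) derived from the bone marrow of C57Bl/6 mice. All libraries came from cells that carry a lysozyme promoter-driven GFP reporter (Lys-GFP) and a HOXA9 fusion whose hormone-binding part comes from the estrogen receptor (G400V), so that the cells self-renew for as long as they have estradiol. All cells were grown with stem cell factor. Estradiol was at 150 ng/ml in every group but HOXA9 OFF. Uninduced cells were the 0 h state. For CAF-1 OFF, 500 µM IPTG was given over 48 h, which switches on an shRNA against Chaf1b, a subunit of the histone chaperone complex CAF-1. IPTG-treated control cells were also kept for 48 h with IPTG, and HOXA9 OFF cells were cultured for 48 h without estradiol. Each group had 2 libraries. The lines were clonal, and the labels give neither the clone of each library nor the vector of the IPTG-treated control. The study mentions independent sub-clones for its RNA-seq tracks without tying them to libraries. The p-values below measure the spread between these libraries, which may be technical. The study compared these states to learn how loss of CAF-1 changes the identity of the progenitors relative to differentiation after HOXA9 inactivation.

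Paired receptors are families of related surface proteins on myeloid cells in which some members activate the cell and others inhibit it. Activating members such as TREM1, TREM2, TREM3 and TREML4 have short tails and signal through DAP12, the product of Tyrobp, whose ITAM motif recruits the kinase SYK. Inhibitory members such as the product of Lilrb4, known as GP49B, carry ITIM motifs that recruit phosphatases including SHP-1. TREM1 is known for amplifying inflammatory responses in neutrophils and monocytes, whereas TREM2 is known as a lipid-sensing receptor of macrophages, osteoclasts and microglia.

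Between 14044284 and 22423837 reads per library were assigned to genes, and 13080 genes passed the filter on low counts. Levels are given as CPM, counts scaled to 1000000 reads after TMM scaling of the library sizes. A level of 3 counts, used as the detection floor, was 0.128 to 0.212 CPM depending on the library. Floors and counting intervals cover counting error only. Chaf1b, the gene targeted by the shRNA, had 18.7 and 9.72 CPM in the CAF-1 OFF libraries, was at 95.04 to 102 CPM in uninduced and IPTG-treated control cells, and had 48.3 and 41.0 CPM in the HOXA9 OFF libraries. Hoxa9 transcripts were at 480.9 and 449.5 CPM in HOXA9 OFF libraries and at 234 and 235 CPM in uninduced ones (log2 fold change 0.99, FDR = 0.00032), so HOXA9 OFF stands for hormone withdrawal, which the transcript does not check. All 8 progenitor markers were detected in every library, with Mpo between 2558 and 7803 CPM. Of these, 5 were called lower and 0 higher in HOXA9 OFF than in uninduced cells, beside 22.1% and 25.2% of all tested genes. Flt3, for example, was at 9.27 and 2.43 CPM there against 245 and 349 CPM in uninduced libraries. The T cell genes Cd3e and Cd3g were at 0 in all 8 libraries. In IPTG-treated control replicate 1, 14.6% of reads fell outside annotated genes, against 5.30% to 7.79% in the other libraries. In bulk RNA, fewer cells of a type and less RNA per cell cannot be told apart.

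Of the 9 genes, 6 lie in a single cluster on chromosome 17, at chr17:48371903-48506499 in mm9, in the order Trem1, Trem3, Treml4, Treml2, Trem2 and Treml1, all on the plus strand over 134.6 kb. Tyrobp lies at chr7:31198807-31202596. Gp49a (chr10:51200438-51206122) and Lilrb4 (chr10:51200446-51216419) overlap and together span 16.0 kb of chromosome 10, and their gene models share 114 bases of first exon. Of the 50-base windows along their longest coding transcripts, 69.5% for Gp49a and 69.3% for Lilrb4 were found in no other protein-coding gene, against 100% for each of the other 7 genes. Over exons of equal length the pair differed at 35 of 830 bases. Exon 6, which encodes the membrane-spanning segment, is shown as an example of how alike the pair is. The 4 of 117 bases that differ are in capitals (mm9, plus strand, chr10:51203568-51203684 and chr10:51213868-51213984).
Gp49a exon 6: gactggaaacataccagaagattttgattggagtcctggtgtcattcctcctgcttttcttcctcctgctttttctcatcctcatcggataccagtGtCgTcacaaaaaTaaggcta
Lilrb4 exon 6: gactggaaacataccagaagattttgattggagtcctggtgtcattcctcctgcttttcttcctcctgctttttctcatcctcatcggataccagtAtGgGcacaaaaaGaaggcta
Reads that match both places equally were not assigned to either gene, so the single levels of Gp49a and Lilrb4 are uncertain and their sum is given beside them.

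The sequence before the start site was available from RefSeq (GRCm38.p6) for 5 of the 9 genes. The 250 bases upstream of Trem1, Trem2 and Treml4, neighbours in the cluster with different patterns below, and of Gp49a are shown on the plus strand, with motif matches in capitals. The motifs searched on both strands were AGGAAG of ETS type, TTGCNNAA of C/EBP type, TGANTCA of AP-1 type, and TATAAA of TATA-box type. Only matches to a whole motif are in capitals, and shorter forms were not searched.
Trem1 (chr17:48232489-48232738): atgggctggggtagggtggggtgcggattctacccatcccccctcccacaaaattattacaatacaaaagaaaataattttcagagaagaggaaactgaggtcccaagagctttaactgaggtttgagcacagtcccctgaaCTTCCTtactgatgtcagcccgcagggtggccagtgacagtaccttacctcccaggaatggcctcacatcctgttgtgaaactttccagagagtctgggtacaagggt
Trem2 (chr17:48346151-48346400): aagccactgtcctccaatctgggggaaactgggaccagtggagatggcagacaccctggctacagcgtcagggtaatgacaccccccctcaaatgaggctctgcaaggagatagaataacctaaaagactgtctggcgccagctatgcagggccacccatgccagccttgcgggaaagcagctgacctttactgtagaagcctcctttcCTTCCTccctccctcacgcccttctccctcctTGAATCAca
Treml4 (chr17:48264045-48264294): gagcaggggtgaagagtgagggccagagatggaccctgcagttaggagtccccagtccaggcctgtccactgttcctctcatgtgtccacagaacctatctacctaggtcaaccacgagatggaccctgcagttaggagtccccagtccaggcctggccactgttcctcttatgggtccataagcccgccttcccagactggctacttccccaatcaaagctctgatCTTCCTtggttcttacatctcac
Gp49a (chr10:51480362-51480611): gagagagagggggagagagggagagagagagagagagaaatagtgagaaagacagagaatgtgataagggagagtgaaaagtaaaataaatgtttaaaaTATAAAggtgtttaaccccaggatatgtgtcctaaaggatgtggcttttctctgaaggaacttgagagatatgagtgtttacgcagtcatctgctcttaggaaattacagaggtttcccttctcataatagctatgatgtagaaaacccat
The ETS-type motif AGGAAG matched on the opposite strand at -108 in Trem1, at -41 in Trem2 and at -23 in Treml4, counted from the start site. It is present in 29.2% of 27025 promoters of this length. Trem2 also held the AP-1-type motif at -9, which 6.9% of promoters hold, and Gp49a the letters TATAAA at -151, which 13.0% hold. The C/EBP-type motif, found in 9.6% of promoters, matched in none of the 5 windows, and the fifth window, that of Treml1, held none of the 4 motifs. A match describes letters and is no evidence of binding.

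The 9 genes fell into different patterns across the 4 states. Trem1, Trem3, Treml2 and Tyrobp were expressed in all 8 libraries. Trem2, Gp49a and Lilrb4 were at or near 0 in uninduced and IPTG-treated control cells and reached 10.5 CPM or more in both HOXA9 OFF libraries. Treml4 was low in all groups, and Treml1 was not detected above the floor, with 0 to 2 counts per library. Treml1, whose product TLT-1 is a platelet granule receptor, did not pass the filter, leaving 8 genes in the fit.

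**Figure D1:**
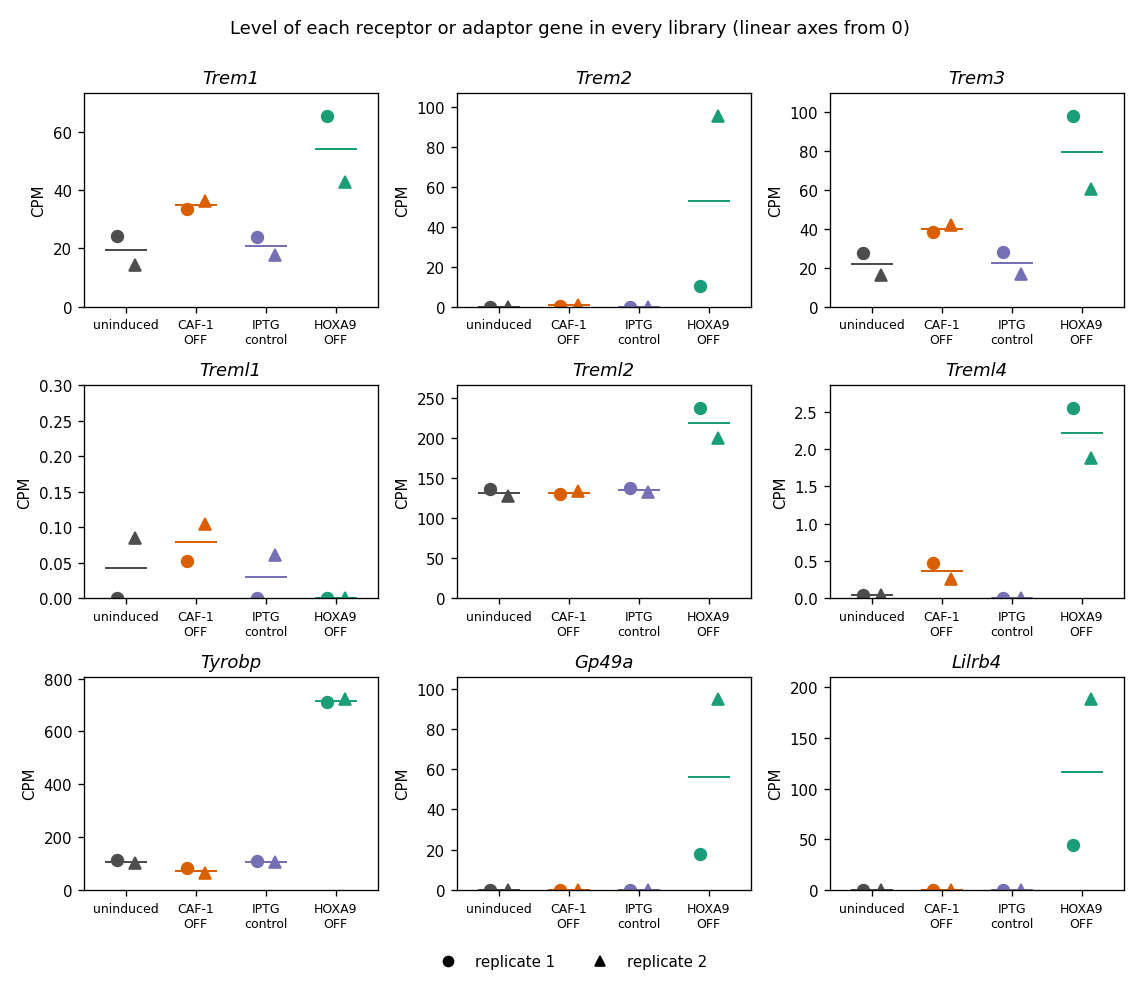
CPM (linear axes starting at 0) of the 9 genes in the 8 libraries, with circles for replicate 1, triangles for replicate 2 and a line at the group mean. Trem2, Gp49a and Lilrb4 stand high in the HOXA9 OFF libraries alone and above all in replicate 2, Tyrobp is at 709.8 and 721 CPM there, and Trem1 and Trem3 lie in between in CAF-1 OFF cells.

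Compared per kilobase of exon, Tyrobp was the most abundant of the 9 genes in every group, at 189.6 CPM per kb in uninduced, 189.8 in IPTG-treated control, 129 in CAF-1 OFF cells and 1268 in HOXA9 OFF cells. In uninduced cells Treml2 (26.8 CPM per kb) and Trem3 (22.1) followed with overlapping libraries, and Trem1 (6.40) lay below both. In CAF-1 OFF cells the order was Trem3 (40.4 CPM per kb), Treml2 (26.8) and Trem1 (11.6), with no overlap between neighbours. In HOXA9 OFF cells the libraries of neighbours overlapped from Trem3 (79.8 CPM per kb) through Lilrb4, Treml2, Gp49a and Trem1 down to Trem2 (10.7), so that order is not resolved. The Trem2 value depends on the length used, since it was 48.6 CPM per kb over its longest coding transcript, which is shorter than the union of its annotated exons. The ratio of Tyrobp to the summed levels of Trem1, Trem2, Trem3 and Treml4, all per kb, was 5.62 and 8.36 in uninduced cells and 5.37 and 8.07 in IPTG-treated control cells. This ratio of adaptor to receptors was 2.92 and 2.05 in CAF-1 OFF cells, below all 4 of those libraries. It was 10.2 and 13.4 in HOXA9 OFF cells, above all others, but 9.60 and 7.81 over the longest transcripts, where replicate 2 overlapped uninduced cells.

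After HOXA9 inactivation all 8 tested genes stood higher than in uninduced cells, and both HOXA9 OFF libraries lay above both uninduced ones for each of them. The fit called 8 of 8 higher, beside 25.2% of the 13080 tested genes called higher and 22.1% called lower. The genes were picked with this contrast known, and Trem2, Treml4, Gp49a and Lilrb4 had at most 1 read in each uninduced library, so the count is no evidence about them. Under scaling by library size alone, 2715 genes were called higher and 3705 lower, against 3293 and 2886 with TMM, and the median of all genes moved from 0.01 to -0.18 on the log2 scale. The 8 log2 fold changes kept their sign under that scaling.

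Tyrobp, the shared signalling adaptor, had 113 and 101 CPM in uninduced libraries against 709.8 and 721 CPM in HOXA9 OFF libraries. The replicates nearly coincided, and the difference was 6.69-fold (log2 fold change 2.74, SE 0.15). Trem1, the receptor that amplifies inflammatory signals, stood at 24.3 and 14.4 CPM without induction against 65.2 and 42.6 CPM after HOXA9 inactivation, a 2.79-fold difference (log2 fold change 1.48, SE 0.30). Trem3, its neighbour and a DAP12-coupled receptor of the mouse, was at 27.5 and 16.5 CPM against 97.8 and 60.7 CPM, a 3.61-fold difference (log2 fold change 1.85, SE 0.34). For both genes replicate 1 was the higher library in each of these groups. The ratio of Trem1 to Trem3 counts was 0.854 to 1.05 in the 6 other libraries and 0.667 and 0.702 in HOXA9 OFF cells, below all of them.

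Treml2, which encodes TLT-2, a receptor of the family that is not known to use DAP12, had 136 and 127 CPM in the uninduced libraries against 237 and 199.6 CPM in the HOXA9 OFF ones. At 1.66-fold (log2 fold change 0.73, SE 0.11) this was the smallest difference among the 8 genes. Treml4, a receptor known from splenic macrophages and dendritic cells, had 1 count in each uninduced library and 47 and 38 counts in HOXA9 OFF libraries, or 2.55 and 1.88 CPM. The ratio was 50.5 with an exact counting interval of 13.6 to 424, since the uninduced level rests on 2 reads.

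Trem2 had 0 counts in both uninduced libraries and 193 and 1921 counts in HOXA9 OFF libraries, or 10.5 and 95.2 CPM. Against the floor of 3 counts it was at least 396-fold higher over both libraries, at least 78.4-fold in replicate 1 alone and at least 713.5-fold in replicate 2 alone. Gp49a, which encodes the member of the pair without ITIM motifs, had 1 and 0 counts in uninduced libraries and 328 and 1910 in HOXA9 OFF libraries, or 17.8 and 94.7 CPM. Lilrb4, the inhibitory member, had 0 and 1 counts against 825 and 3795, or 44.7 and 188 CPM. Summed, the pair had 1 count in each uninduced library and 62.5 and 283 CPM in HOXA9 OFF libraries. The ratio of the sum was 4073 with a counting interval of 1127 to 33641, 1434 with replicate 1 alone and 6485 with replicate 2 alone. Lilrb4 made up 71.6% of the counts of the pair in HOXA9 OFF replicate 1 (95% Wilson interval 68.9 to 74.1) and 66.5% in replicate 2 (65.3 to 67.7). These intervals cover counting error only and not the spread between libraries, and reads matching both genes were left out.

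The HOXA9 OFF replicates differed most for Trem2, Gp49a and Lilrb4 among the 8 genes. Replicate 2 was above replicate 1 by 9.10-fold for Trem2, 5.32-fold for Gp49a, 4.20-fold for Lilrb4 and 4.52-fold for the sum. For the other genes the ratio of replicate 2 to replicate 1 was 0.653 for Trem1, 0.621 for Trem3, 0.841 for Treml2, 0.739 for Treml4 and 1.02 for Tyrobp. With 0.5 CPM added to every level, 58 of 13080 tested genes had a larger ratio than Trem2, 124 than Gp49a and 169 than Lilrb4. Trem1 and Trem3 were lower in replicate 2 in uninduced cells too, at ratios of 0.590 and 0.599, and in IPTG-treated control cells, at 0.741 and 0.604, but not in CAF-1 OFF cells, at 1.07 and 1.09.

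Lineage markers also differed between the HOXA9 OFF libraries. Of 8 monocyte and macrophage markers above the floor in both, 6 were higher in replicate 2, and the summed level of the list of 12 was 1060 and 2040 CPM, against 29.7 to 98.1 CPM in the other 6 libraries. The macrophage genes Ms4a7 (18.9 and 313 CPM), C1qb (0.434 and 121 CPM) and Cd68 (47.2 and 234 CPM) stood out, while C1qa was at 0 and 4.41 CPM. Emr1 (493 and 436 CPM) and Cx3cr1 (24.8 and 18.4 CPM) went the other way. All 11 neutrophil markers were lower in replicate 2, with a median ratio of 0.673 and summed levels of 9507 and 6460 CPM. Of 3 microglial genes above the floor, 2 were higher in replicate 2 with a median ratio of 1.10, and the microglial gene Sall1 was at 0 in both libraries. All 8 progenitor markers were lower in replicate 2 as well, with a median ratio of 0.740. Of 7 mast cell and basophil markers 1 was higher in replicate 2, with a median ratio of 0.684, and of 5 megakaryocyte and platelet markers 2 were, Pf4 (1.25 and 20.8 CPM) and Ppbp (0.976 and 15.2 CPM). Most monocyte and macrophage markers were thus higher in the library with more Trem2, Gp49a and Lilrb4, and neutrophil, progenitor and most mast cell and basophil markers in the library with more Trem1 and Trem3, and their part in these differences was not tested.

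**Figure D2:**
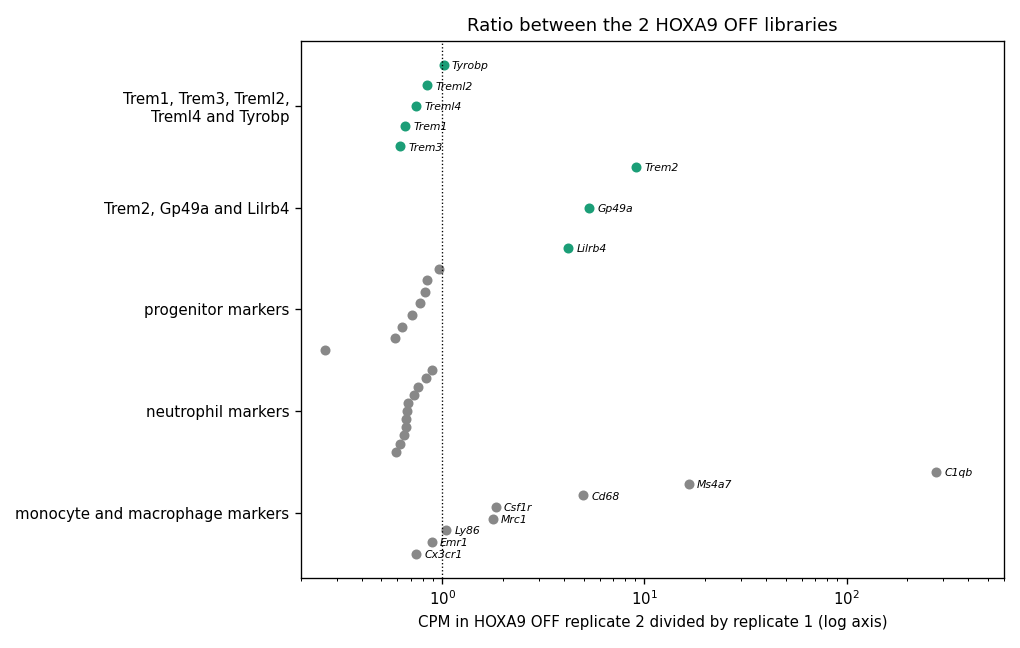
Ratio of CPM in HOXA9 OFF replicate 2 to replicate 1 (log axis, dotted line at 1) for 8 of the 9 genes in green and for markers above 3 counts in both libraries in grey. Trem2 (9.10), Gp49a (5.32) and Lilrb4 (4.20) lie on the side of Cd68 (4.96) and Ms4a7 (16.5), while the macrophage markers Emr1 (0.884) and Cx3cr1 (0.744) lie below 1. Trem1 (0.653) and Trem3 (0.621) lie among the neutrophil and the progenitor markers.

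After CAF-1 suppression the genes did not all differ in the same direction. The CAF-1 OFF libraries had 33.7 and 36.2 CPM of Trem1, above the uninduced (24.3 and 14.4 CPM) and the IPTG-treated control libraries (24.0 and 17.8 CPM). The difference from uninduced cells was 1.80-fold (log2 fold change 0.85, SE 0.29) and that from control cells 1.67-fold (0.74, SE 0.30). Trem3 reached 38.5 and 41.9 CPM with CAF-1 suppressed, against 28.1 and 17.0 CPM in control libraries, and differed by 1.83-fold from uninduced (0.87, SE 0.33) and by 1.78-fold from control cells (0.84, SE 0.34). For both genes the CAF-1 OFF libraries lay above all 4 libraries of the other groups kept in estradiol. Tyrobp was the other way round, with 82.5 and 62.9 CPM when CAF-1 was suppressed and 109.6 and 104.5 CPM in control libraries. It was lower by 0.56 on the log2 scale in each comparison (SE 0.14), with no overlap. Treml2 did not separate the groups, with 130.0 and 133 CPM after CAF-1 suppression and 137 and 132.5 CPM in control libraries (log2 fold change 0.00 and -0.03, SE 0.11 each).

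Trem2, at 0 counts in all 4 uninduced and IPTG-treated control libraries, had 9 and 21 counts in CAF-1 OFF cells, or 0.474 and 1.10 CPM. Against the floor this was at least 5.89-fold above uninduced and at least 3.71-fold above control cells. Treml4 had 9 and 5 counts in CAF-1 OFF cells, 1 and 1 in uninduced and 0 and 0 in control cells, a ratio to uninduced cells of 8.42 with a counting interval of 1.93 to 76.3. No CAF-1 OFF library had a count of Gp49a, and Lilrb4 had 4 and 3 counts there, all near the floor. Summed, the pair thus had 4 and 3 counts in CAF-1 OFF cells, against 1 in each uninduced and IPTG-treated control library. In the fit, 1 of the 8 genes, Treml4, was called higher and 0 lower against uninduced cells, beside 10.5% and 3.5% of all tested genes. Against IPTG-treated control cells Treml4 was again the 1 gene called higher and 0 were lower, beside 9.56% and 3.2%. Treml4 did not pass the filter on low counts in a fit of only the groups compared, in either comparison, so these calls are no evidence about it. The comparisons share the CAF-1 OFF libraries.

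Between IPTG-treated control and uninduced cells no gene above the floor was separated. For Trem1, Trem3, Treml2 and Tyrobp the IPTG-treated control and uninduced libraries overlapped, with log2 fold changes between 0.00 and 0.11 and SE of 0.11 to 0.34, and the other genes were at or under the floor in both groups. Of the 8 genes 0 were called, and 0 of 13080 genes, or 0%, were called by edgeR, with 100 genes at an unadjusted p under 0.05 and 5 calls by DESeq2.

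Set directly against HOXA9 OFF cells, CAF-1 OFF cells had lower levels of all 8 genes, with no overlap of libraries. The fit called 7 of them lower, all but Trem1, and 0 higher, beside 21.4% of all genes called lower and 22.2% higher, and as before nothing is read from this count. Scaling by library size alone gave 3948 genes higher and 2065 lower, against 2898 and 2797 with TMM, and moved the median of all genes from 0.04 to 0.27 on the log2 scale, with the sign of all 8 genes kept. The differences spanned a wide range. Trem1 and Trem3 in HOXA9 OFF cells were 1.55-fold and 1.97-fold above CAF-1 OFF cells, whose log2 fold changes were -0.63 (SE 0.29) and -0.98 (SE 0.33). Treml2 was 1.66-fold, Treml4 6.03-fold and Tyrobp 9.84-fold higher in HOXA9 OFF cells. Trem2 was 67.3-fold higher, or 13.3-fold with HOXA9 OFF replicate 1 alone and 121-fold with replicate 2 alone. Gp49a was at least 356-fold higher and Lilrb4 634-fold. With replicate 1 alone these were at least 113-fold and 244-fold, and with replicate 2 alone at least 599.8-fold and 1025-fold. The sum of the pair was 940-fold higher, or 341-fold with replicate 1 alone and 1540-fold with replicate 2 alone. The CAF-1 OFF level of Lilrb4, and so of the sum, rests on 4 and 3 reads.

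The chromosome 17 cluster holds further genes of the family that were not used to choose the 9. Within 100 kb of it the annotation has 8 other genes, of which 5 were tested. B430306N03Rik, between Treml2 and Trem2 and listed by RefSeq with the synonym Treml6, had 4.85 and 3.46 CPM in uninduced libraries and 136 and 110.0 CPM in the HOXA9 OFF ones, a 29.6-fold rise (edgeR FDR = 2.7e-05). A530064D06Rik, with the synonym Trem4, had 20.1 and 14.2 CPM after HOXA9 inactivation against 0 counts before, a difference of at least 128-fold. 9830107B12Rik, with the synonym Trem5, had 18.0 and 10.6 CPM after HOXA9 inactivation against 0 counts before, a difference of at least 107-fold. These last genes were at or under the floor in the other groups and passed the filter through HOXA9 OFF cells, so no test of them is given. All 3 were higher in HOXA9 OFF replicate 1, unlike Trem2. After CAF-1 suppression B430306N03Rik stood at 5.05 and 9.67 CPM and did not pass the test against uninduced cells (log2 fold change 0.82, SE 0.32, FDR = 0.102). Beyond Treml1, the transcription factor gene Nfya (HOXA9 OFF libraries at 122 and 101 CPM, log2 fold change -0.33, SE 0.14, FDR = 0.0808) and AI314976 (38.6 and 31.7 CPM, -0.10, SE 0.14, FDR = 0.576) were not called. Of the remaining genes in the window, Apobec2, Tspo2 and Unc5cl, and of Fam162b beside Gp49a and Lilrb4, 0 passed the filter.

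**Figure D3:**
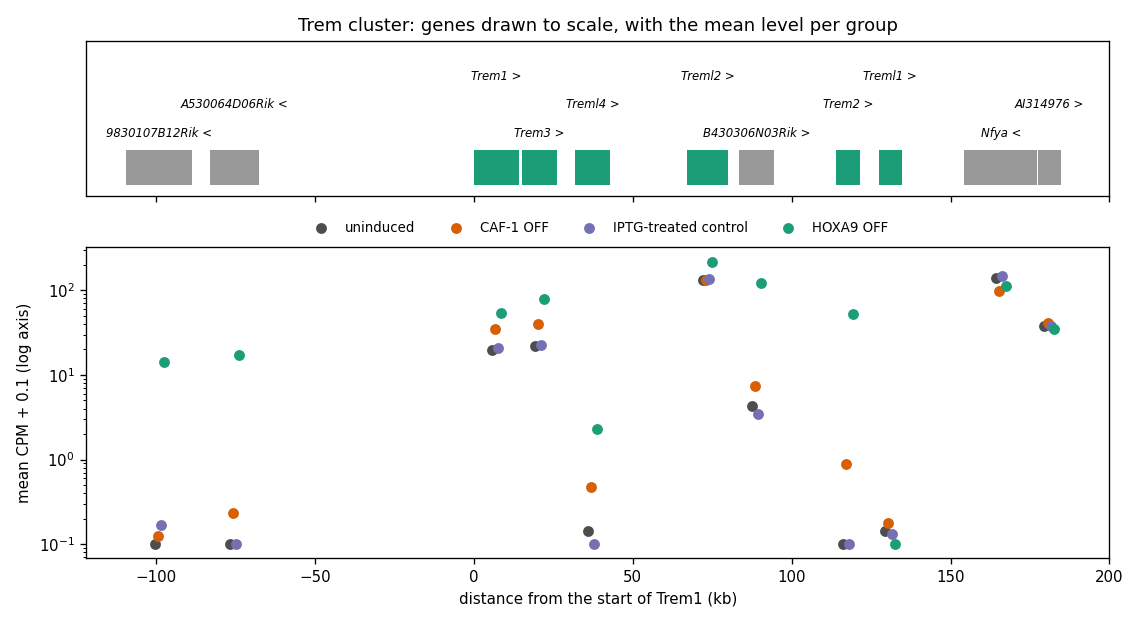
Upper panel, genes of the chromosome 17 cluster to scale by distance from the start of Trem1 in kb, with the 6 described Trem and Treml genes in green, neighbours in grey, and > or < for plus or minus strand. Lower panel, mean CPM + 0.1 of each group (log axis, 2 libraries each), in which HOXA9 OFF is the highest group from 9830107B12Rik to Trem2 but not for Treml1, Nfya or AI314976.

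Of 105 tested genes in 6 related lists, which were chosen with earlier results known, 78 were called higher and 6 lower after HOXA9 inactivation, beside 25.2% and 22.1% of all tested genes, with a median log2 fold change of 1.95, or 1.89 with genes under the floor set to their bound, against 0.01 over all genes. Of 19 activating receptors in the files 15 were tested and all were called higher, but 6 of them were at or under the floor in uninduced and CAF-1 OFF cells and passed the filter through HOXA9 OFF cells, so the count is partly set by the filter. They included Clec5a, a DAP12-coupled lectin (60.6 to 346 CPM, FDR = 5.62e-05), and Pilrb1 and Pilrb2, whose near-identical sequences make the split between them uncertain (FDR = 0.000329 and 0.000298). Sirpb1c and Sirpb1a, also close copies, went from 0 counts to 19.7 and 7.62 CPM, and Lilra6 from 1 count to 18.8 CPM. Of 17 inhibitory receptors 15 rose and Cd72 fell. Lilrb3, of the same family as Lilrb4, went from 0.588 to 121 CPM (FDR = 8.53e-06), and Pilra, Clec4a2, Cd300lf, Siglece and Sirpa rose by 45.5-fold, 133-fold, 53.4-fold, 29.4-fold and 7.53-fold. Lineage markers moved in the same comparison. All 11 neutrophil and all 8 tested monocyte and macrophage markers were higher, with 4 of 6 megakaryocyte, 2 of 3 dendritic cell, 2 of 3 microglial, 1 of 7 mast cell and basophil and 1 of 4 lymphoid markers, while 5 of 8 progenitor markers and 1 marker of each of the last 5 lists were lower. Their part in the receptor levels was not tested.

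Downstream of the receptors, 16 of 26 adaptors and kinases rose and Plcg1 fell, beside the 25.2% of all tested genes called higher and 22.1% called lower, against which each count here is to be read. The ITAM adaptor Fcer1g rose by 2.89-fold (FDR = 0.000356), the adaptor Hcst by 2.22-fold (FDR = 0.00192) and the kinase Syk by 2.64-fold (FDR = 6.59e-05), compared with 6.69-fold for Tyrobp. The kinase Fgr rose by 33.4-fold, and the linker Blnk rose from 1.29 and 1.11 CPM to 8.41 and 63.3 CPM, so its size rests on replicate 2. Of 11 negative regulators 8 rose, including Ptpn6, which encodes SHP-1 (2.54-fold), Inpp5d (1.65-fold), Ubash3b and Cblb. The calls of Inpp5d, Cblb and Cd72 were each lost in at least 1 alternative fit. Of 14 ligands and sheddases 5 were higher and 3 lower (35.7% and 21.4%), near the shares of all genes. Pglyrp1, whose product binds TREM1, rose by 5.83-fold, while Hspd1, Hmgb1 and Clu fell and Apoe, a TREM2 ligand, was at 7.18 and 8.98 CPM and did not pass the test (FDR = 0.392).

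Of 24 tested genes in a list of transcripts associated with TREM2-positive macrophages and microglia, 20 rose and Cst7 fell, beside the same shares of all genes. As 3 of the 24 were at or under the floor in 1 of the groups, the count is partly set by the filter, and the median log2 fold change was 3.46, or 2.84 with those genes at their bound. This list followed Trem2 between the HOXA9 OFF replicates as well. Of its 23 genes above the floor in both libraries, 21 were higher in replicate 2 and 16 by more than 2-fold, with a median ratio of 2.67, beside 739 of 12423 tested genes above 2-fold and a median of 0.972. Gpnmb was at 78.7 and 2790 CPM, Spp1 at 117 and 812 CPM, Lgals3 at 149 and 704 CPM and Axl at 20.1 and 90.6 CPM. Timp2 went the other way, at 7.38 and 2.13 CPM. The activating and inhibitory receptor lists had median ratios of 0.942 and 0.885.

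**Figure D4:**
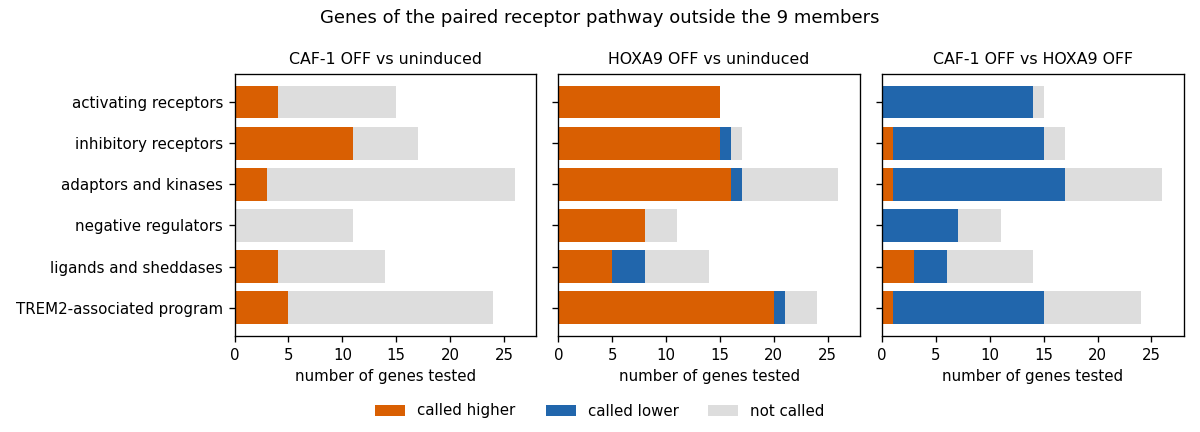
Number of genes called higher (orange), lower (blue) or not called (grey) in each of 6 lists of related genes outside the 9, for 3 comparisons. Against uninduced cells, 15 of 15 activating receptors were called higher in HOXA9 OFF cells and 4 of 15 in CAF-1 OFF cells, and 15 and 11 of 17 inhibitory receptors. Of all tested genes, 25.2% were called higher in HOXA9 OFF and 10.5% in CAF-1 OFF cells. Of the 15 activating receptors 6 entered through HOXA9 OFF cells, so their counts cannot be compared between the panels.

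In CAF-1 OFF cells 27 of the 105 related genes were called higher than in uninduced cells and 0 lower, beside 10.5% and 3.5% of all tested genes, with a median log2 fold change of 0.47, or 0.38 with genes under the floor at their bound. Of 17 inhibitory receptors 11 were higher, and 9 against IPTG-treated control cells, and those higher than in uninduced cells included Fcgr2b (64.7 to 249.9 CPM, FDR = 0.00163), Siglece (4.57 to 30.4 CPM, FDR = 0.0143), Pilra (0.991 to 7.72 CPM, FDR = 0.0194) and Lilrb3 (0.588 to 1.42 CPM, FDR = 0.031). Lilrb3 did not pass the test against control cells (FDR = 0.132). Of 15 activating receptors, of which 6 were at or under the floor in both groups, 4 rose, including Clec5a (2.94-fold, FDR = 0.00568) and Cd300ld (6.51-fold, FDR = 0.00747). Of 26 adaptors and kinases 3 rose, the kinases Fgr (4.65 to 12.3 CPM, FDR = 0.0174) and Tec (68.6 to 133 CPM, FDR = 0.00611) and the adaptor Pik3ap1 (83.2 to 169 CPM, FDR = 0.0153). Their share, 11.5%, was near the 10.5% of all tested genes called higher. The adaptors Fcer1g and Hcst and the kinase Syk did not pass the test, with log2 fold changes of -0.18, 0.51 and 0.04 (SE 0.19, 0.20 and 0.12). Nor did any of 11 negative regulators, although 1 of them, Ubash3b, was called higher against control cells (1.52-fold, FDR = 0.0293). Adam17, which encodes a sheddase that cleaves TREM2, rose by 1.93-fold (FDR = 0.011), Pglyrp1 by 2.03-fold and Axl from 1.77 to 37.9 CPM (FDR = 0.0145). Against IPTG-treated control cells 24 related genes were higher and 0 lower, beside 9.56% and 3.2% of all genes. The counts rest on few libraries, being 4 without uninduced replicate 1, 7 without uninduced replicate 2 and 5 without CAF-1 OFF replicate 2, and against control cells 6, 4 and 6 without control replicate 1, control replicate 2 and CAF-1 OFF replicate 2. In the comparison with uninduced cells, 2 of the 18 called genes under the naming rule, Fcgr2b and Itgb3, kept their call in all 14 alternative fits. Beside these, 8 of 11 neutrophil markers, 4 of 6 megakaryocyte markers, 2 of 8 monocyte and macrophage markers 2 of 7 mast cell and basophil, 2 of 4 lymphoid, 1 of 3 microglial, 1 of 8 progenitor and 0 of 3 dendritic cell markers were called higher in CAF-1 OFF than in uninduced cells, beside the same 10.5% of all genes, with 0 markers of these lists lower, and their part in the receptor levels was not tested.

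Between CAF-1 OFF and HOXA9 OFF cells 67 related genes were called lower in CAF-1 OFF cells and 6 higher, beside 21.4% and 22.2% of all genes, with a median log2 fold change of -1.20. With scaling by library size alone 63 were lower and 8 higher. Fcgr2b did not pass this test (249.9 and 237 CPM, FDR = 0.692), and neither did Axl (37.9 and 55.3 CPM, FDR = 0.53) or Cd9 (47.8 and 55.2 CPM, FDR = 0.648). Clu was higher in CAF-1 OFF cells, at 27.5 against 3.30 CPM (FDR = 0.000178).

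Over the 8 libraries, the log2 levels of the genes tracked one another to different degrees. The correlation was 0.990 for Trem1 with Trem3, 0.982 for Gp49a with Lilrb4, 0.958 for Trem2 with Lilrb4 and 0.960 for Treml2 with Tyrobp, and 0.654 for Trem1 with Tyrobp. Among all tested genes the closest in pattern were Ddb2, Trem3 and Il15 for Trem1 (r = 0.994, 0.990 and 0.988), and Hdc, Hsd11b1 and Mtus1 for Trem3. For Trem2 they were Acbd5, Cyfip1 and Asgr2 (r = 0.997, 0.996 and 0.995). The closest were Hexa and Phf11 beside AI607873 for Gp49a, Galnt4, Dram2 and Antxr2 for Lilrb4, and Bloc1s3, Coro1b and Arhgap17 for Tyrobp. Treml2 came closest to Rac2, Ccdc125 and Evi2b, and Treml4 to Plscr1, Siglec5 and Dcaf10. The libraries fall into 4 groups, and such values are high for many genes, since 108 genes exceeded 0.95 with Trem1, 562 with Trem2 and 649 with Tyrobp.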

How the data were processed

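RNA-seq was measured in 8 libraries, 2 per group, grouped by their labels. The authors used STAR with mm9, then HTSeq, per the submitters' processing notes, and the deposited values are raw counts per gene. The kit was directional per the study's methods, but the strand setting of the counting, the annotation version and the read length are not given in the sources used here, so overlapping genes are uncertain, and reads with several alignments were not assigned. The members and the gene lists were chosen with earlier results of these data known. Counts were fitted with edgeR 4.0.16 (glmQLFit, 1 mean per group over all libraries, TMM, filterByExpr), and genes were called at an FDR under 0.05 (Benjamini-Hochberg over 13080 genes) and 1.5-fold, as in the study's methods. The standard error came from the F statistic. Folds against groups at 0 were computed against 3 counts in the smaller library, and ratios to groups with 1 to 3 counts a library used an exact binomial interval. Named related genes were a preset list plus up to 3 called genes per list and direction (mean log2 CPM 1 or more, libraries not overlapping), and markers and TREM2-associated genes that differed between HOXA9 OFF replicates were named after their values were seen. Alternatives were DESeq2 1.42.0, 2 other scalings, no filter, only the compared groups, a replicate block and leaving out each library. Total counts were 14044284 to 22423837, and the biological coefficient of variation was 18.9%. Lengths and coordinates came from GENCODE vM1 (mm9), and promoters from RefSeq (GRCm38.p6). The code was tested on simulated data. No proteins are shown.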

Additional observations from a re-analysis of the deposited data

How the results depend on the processing

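The log2 fold changes of the 8 tested members kept their sign, where they were above 0.11 in size and the gene was over the floor, under the alternatives that gave a value: other scalings, no filter, DESeq2, only the compared groups, the replicate block and leaving out each library. With only the compared groups, Treml4, Gp49a and Lilrb4 had no value in CAF-1 OFF against uninduced or control cells, nor Trem2 against control cells, since they did not pass the filter. In HOXA9 OFF against uninduced cells the range without 1 library was 1.14 to 1.90 for Trem1, 1.47 to 2.26 for Trem3, 0.60 to 0.85 for Treml2 and 2.66 to 2.83 for Tyrobp. In CAF-1 OFF against uninduced cells it was 0.52 to 1.28 for Trem1, 0.54 to 1.28 for Trem3 and -0.79 to -0.37 for Tyrobp. Counts of calls depended on single libraries. In CAF-1 OFF against uninduced cells the number of genes called was 1836, and 157 to 2191 without 1 library, and that of related genes was 27, and 4 to 36. Against IPTG-treated control cells these were 1670 (199 to 1965) and 24 (4 to 30). Fewer samples enter these fits. In HOXA9 OFF against uninduced cells they were 6179 (5446 to 6140) and 84 (76 to 86). DESeq2 called 5 genes between IPTG-treated control and uninduced cells where edgeR called 0, and the cause was not tested. Of named related genes, 0 reversed in 2861 recomputed values, 126 calls were lost and 36 gained. Replicate numbers are shared between groups, but with 2 per group they do not establish pairs. Deviations of same-numbered libraries correlated at 0.475 between uninduced and IPTG-treated control, 0.301 between uninduced and HOXA9 OFF and -0.044 between uninduced and CAF-1 OFF. When replicate number was added as a block (replicate block), related genes called were 34 in CAF-1 OFF and 84 in HOXA9 OFF cells against uninduced, 28 against control cells, and 74 between CAF-1 OFF and HOXA9 OFF cells. Depth limits Treml1 in all groups and Trem2, Treml4, Gp49a and Lilrb4 outside HOXA9 OFF cells, which rest on 0 to 21 reads per library.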
